A study of Mus musculus with 54 samples.

Results

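The mouse genome carries 39 Hox genes, and the count table held all of them among its 55354 mouse genes. They were taken as every protein-coding gene whose symbol is Hoxa, Hoxb, Hoxc or Hoxd followed by a number, matched by Ensembl identifier, without antisense genes. The A cluster contributed 11 genes, the B cluster 10, and the C and D clusters 9 each. RNA was read from motor neurons excised with a laser from 4 sites. These were CN3/4, the oculomotor and trochlear nuclei of the midbrain; CN10 and CN12, which are the vagus and the hypoglossal nucleus of the hindbrain; and SC, the lumbar part of the spinal cord. The mice were mSOD, carrying a transgene for human SOD1 with the G93A change (SOD1G93A, a model of amyotrophic lateral sclerosis), or wild-type littermates (wt). They were taken at P56, before symptoms, or at P112, when symptomatic. Groups held 3 libraries each, except SC P56 wt, SC P56 mSOD and SC P112 wt with 5. That made 54 libraries, 28 wt and 26 mSOD. At P112 the mSOD captures hold the neurons still present at that age.

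Hox genes encode homeodomain transcription factors. Their order along each chromosome cluster matches the order in which they are expressed from the hindbrain to the tail, and genes at matching places in the 4 clusters are numbered alike and form a paralog group. Low-numbered (anterior) groups act in the hindbrain, middle groups in the cervical and brachial cord and high-numbered (posterior) groups in the thoracic, lumbar and sacral cord, while the midbrain lies in front of the Hox domain. In developing motor neurons the combination of Hox proteins, acting with TALE cofactors of the Pbx and Meis families, sets column and muscle pool identity.

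Total counts ran from 1071477 to 8877994 per library (median 4231342.5), and the 12 libraries of sequencing project P6362 (1071477 to 3503579 counts) were all SC. The SOD1 entry took 3.95% to 7.94% of counts in the mSOD libraries and at most 0.00459% in the wt libraries. The cholinergic marker Chat and the intermediate filament gene Prph were present in all 4 sites, while the motor neuron factors Isl2 and Mnx1 reached at most 5 counts in CN3/4 and in CN10 libraries. Other cell types differed between sites. Levels within a gene are given as CPM, counts scaled to the library total. The sums of 10 interneuron markers ran from 206 to 1012 CPM in SC against 48.9 to 286 in the cranial nuclei, and the defining marker Slc6a5 had a median of 121 CPM in SC. For 8 monoaminergic markers the sum was 319 to 670 CPM in CN10 against 11.5 to 246 in CN3/4, 4.42 to 38.2 in CN12 and 3.56 to 37 in SC, with Tph2, Slc6a4 and Fev at or under 3 counts in CN10. Ranges of the glial sums overlapped between CN3/4, CN12 and SC: astrocytes 832 to 1348, 1070 to 1792 and 648 to 1753 CPM, oligodendrocytes 139 to 942, 153 to 341 and 202 to 813, microglia 5.39 to 24.2, 9.95 to 32.6 and 0 to 84.6. In CN10 these sums were 361 to 661, 101 to 198 and 9.36 to 35.2 CPM. The part of these other cells in the Hox results was not tested, and in such captures fewer expressing cells and less RNA per cell cannot be told apart.

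Each site had its own level of Hox RNA. The 39 genes together took 0.429 to 7.48 CPM of the library total in CN3/4 (median 2.82, 12 libraries), 17.9 to 61.9 in CN12 (median 43.9, 12 libraries), 119.9 to 245 in CN10 (median 171, 12 libraries) and 218.1 to 497.3 in SC (median 328.7, 18 libraries). The ranges of CN3/4, CN12 and CN10 did not overlap, and the highest CN10 libraries reached into the SC range. A member was counted as detected in a library at 4 or more counts. CN3/4 libraries had 0 to 2 detected members (median 1), CN12 libraries 4 to 9 (median 6), CN10 libraries 9 to 13 (median 11.5) and SC libraries 15 to 25 (median 19).

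**Figure D1:**
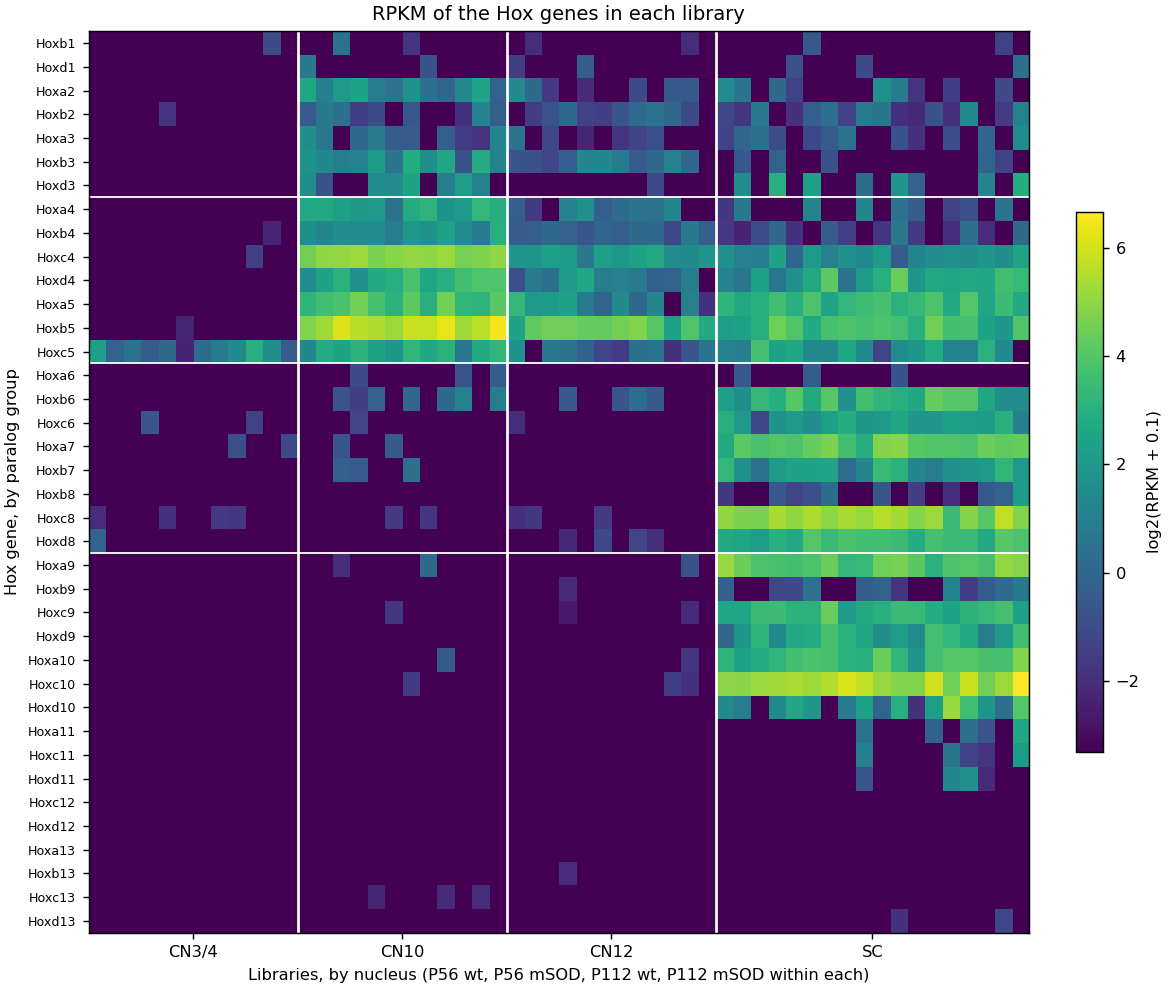
Heat map of log2(RPKM + 0.1) for 38 of the 39 Hox genes (ordered by paralog group) in each of the 54 libraries, grouped by site, age and genotype. CN3/4 columns are near empty, CN10 and CN12 columns are filled in the low paralog groups, and SC columns are filled from group 4 to group 10.

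Many members had no reads at a site. In CN3/4, 29 of 39 members had 0 counts in every library, against 14 in CN12, 13 in CN10 and 5 in SC. Hoxc12, Hoxd12 and Hoxa13 had 0 counts in all 54 libraries. Hoxa6, Hoxb13, Hoxc13 and Hoxd13 never exceeded 3 counts. Group 13, the most posterior, was therefore undetected at all 4 sites at this depth. The median highest paralog group detected was 5 in CN3/4 and in CN12, 6 in CN10 (range 5 to 9) and 10 in SC (range 10 to 11).

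The paralog groups that made up the Hox RNA differed between the brainstem and the cord. On the RPKM scale (the authors' values, which also divide by transcript length and so allow genes to be compared), groups 4 and 5 made up 91.2% of the summed level in CN10 (median; range 76.1% to 95.3%) and 90.9% in CN12 (75.6% to 95.3%). In SC they made up 16.5% (11.7% to 21.9%), with groups 6 to 8 at 37.5% (22.5% to 44.7%) and groups 9 to 13 at 43.8% (34.9% to 61.8%). By cluster, HoxB genes were the largest part in CN12 (median 62.8%, 21.7% to 73.7%) and in CN10 (44.2%, 35.6% to 54.3%), and HoxC genes in SC (45.4%, 24.4% to 60.3%). The RPKM values carry a limit for these genes: dividing a count's share of its library by the RPKM gave a length that varied over 2-fold between libraries for 7 of the 36 members with any count (Hoxb2, Hoxb3, Hoxd3, Hoxc5, Hoxa7, Hoxb8 and Hoxa9).

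**Figure D2:**
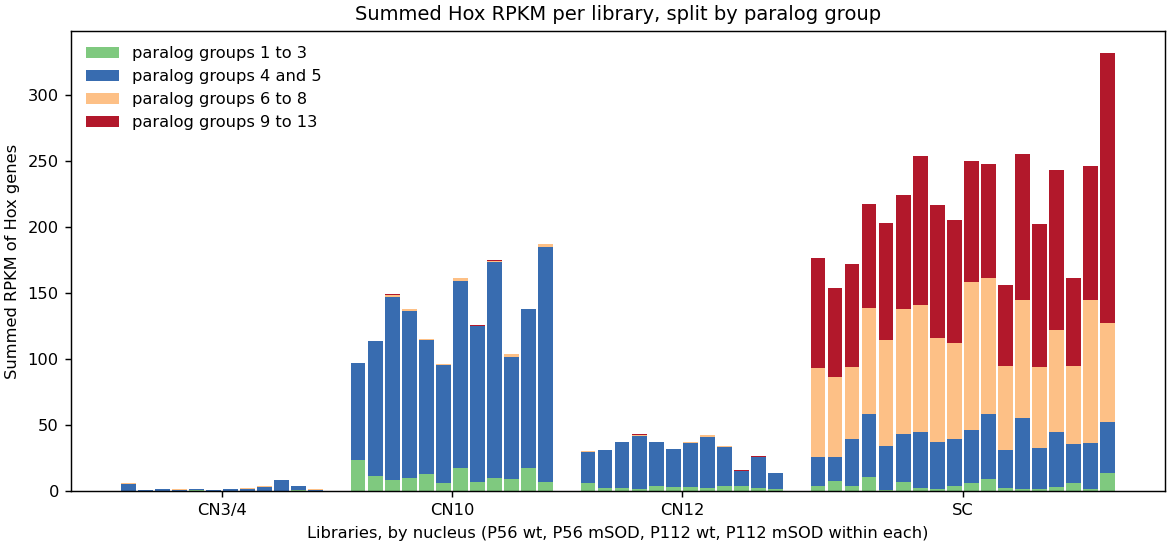
Stacked bars of summed RPKM per library, split into paralog groups 1 to 3, 4 and 5, 6 to 8, and 9 to 13. SC bars reach 153.4 to 331.7 RPKM and hold all bands, CN10 bars reach 95.9 to 187.3 and CN12 bars 13.7 to 42.7, mostly of groups 4 and 5, and CN3/4 bars stay at 0.203 to 8.45.

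Upstream sequence is shown for 2 genes of groups 4 and 5 (Hoxb4 and Hoxa5) and for 2 that were high in SC alone among the 4 sites (Hoxd8 and Hoxa9), chosen after their levels were known. Each is the 250 bases before the annotated start in RefSeq's mouse annotation, build GRCm38.p6, written along the gene's strand. Hoxb4 is at chr11:96318017-96318266 (+ strand), Hoxa5 at chr6:52204588-52204837 (- strand), Hoxd8 at chr2:74704365-74704614 (+ strand) and Hoxa9 at chr6:52227371-52227620 (- strand). None of the windows overlaps an annotated exon. Capitals mark matches on either strand to AGGTCA (the core motif of retinoic acid receptors) or CCAAT (the NF-Y box).
Hoxb4: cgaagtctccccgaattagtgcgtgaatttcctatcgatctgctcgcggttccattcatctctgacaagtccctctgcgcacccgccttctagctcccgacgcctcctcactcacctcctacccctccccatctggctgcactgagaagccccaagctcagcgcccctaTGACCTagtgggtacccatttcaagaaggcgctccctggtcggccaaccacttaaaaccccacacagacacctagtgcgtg
Hoxa5: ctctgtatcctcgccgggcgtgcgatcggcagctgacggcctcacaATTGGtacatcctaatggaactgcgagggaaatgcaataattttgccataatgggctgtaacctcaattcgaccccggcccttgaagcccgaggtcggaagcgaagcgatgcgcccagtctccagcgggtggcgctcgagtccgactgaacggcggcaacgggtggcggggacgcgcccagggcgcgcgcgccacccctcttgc
Hoxd8: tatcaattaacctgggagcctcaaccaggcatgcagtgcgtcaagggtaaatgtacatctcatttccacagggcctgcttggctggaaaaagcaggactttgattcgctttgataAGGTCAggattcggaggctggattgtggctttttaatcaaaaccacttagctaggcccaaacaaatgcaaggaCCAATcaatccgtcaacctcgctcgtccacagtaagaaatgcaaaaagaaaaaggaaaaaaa
Hoxa9: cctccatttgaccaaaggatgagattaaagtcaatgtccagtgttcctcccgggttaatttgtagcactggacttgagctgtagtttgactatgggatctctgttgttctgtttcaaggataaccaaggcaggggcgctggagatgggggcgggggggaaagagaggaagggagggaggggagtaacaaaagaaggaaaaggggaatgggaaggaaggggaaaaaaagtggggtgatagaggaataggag
Hoxb4 held 14 CG dinucleotides, Hoxa5 28, Hoxd8 6 and Hoxa9 3. Hoxb4 had 1 match to AGGTCA, Hoxa5 1 to CCAAT, Hoxd8 1 to each, lying apart, and Hoxa9 none. None of the 4 held TGATNNAT (a Hox and Pbx dimer motif) or TTTATNG (a posterior Hox motif). Windows were found for 22 of the 39 members, 24 windows in all. Among these, 25% held AGGTCA, 58.3% CCAAT, 16.7% TGATNNAT and 8.33% TTTATNG, against 14.0%, 33.8%, 7.68% and 9.81% of 32851 windows of the same length over all genes. The median number of CG dinucleotides was 12.5 in Hox windows and 6 over all.

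CN3/4 motor neurons, which move the eyes, carried almost no Hox RNA. The 1 member detected in over 50% of their libraries was Hoxc5, a middle-group gene used in the cervical cord. It had 1 to 32 counts in all 12 CN3/4 libraries, or 0.233, 2.59 and 7.16 CPM (lowest, median and highest), and its wt mean was 2.06 RPKM. Between CN3/4 and SC Hoxc5 was not called: wt means were 3.46 ± 1.39 CPM (SD, n = 6) and 8.81 ± 4.73 CPM (n = 10), with a log2 difference of -1.04 (SE 0.59, edgeR adjusted p = 0.283). Hoxc5 stood apart in these libraries from its cluster neighbours Hoxc4 and Hoxc6, which reached at most 1 and 3 counts. Its paralog Hoxb5 reached at most 1 count there. For Hoxc5 the limits below apply. Its implied transcript length (the count's share of the library divided by the RPKM) varied from 0.675 to 2.51 kb between libraries. In GENCODE M21 annotation Hoxc5 shares 166 exonic bases with Hoxc10 on the same strand, and reads from shared bases cannot be assigned to either gene. Hoxc10 had 0 counts in CN3/4. The only other member at 4 counts was Hoxd8, with 10 counts in CN3/4 P56 wt replicate 1 and 0 in the other 11 libraries. No member of groups 9 to 13 had a count.

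Against SC, 20 of the 39 members were lower in wt CN3/4 and none was higher (24 tested). Of the 20, Hoxa4 lost the call without SC P56 wt replicate 2 (adjusted p = 0.0735). Of all 18493 genes tested, 15.5% were called in this comparison (adjusted p under 0.05), 6.76% as higher and 8.77% as lower. The 15 members not tested, for low counts at all sites, were Hoxb1, Hoxd1, Hoxd3, Hoxa6, Hoxb8, Hoxb9 and all 9 of groups 11 to 13. The count describes the comparison and is no support for it, since a member that passed the low-count filter only through SC libraries had to differ. Hoxc10, Hoxc8, Hoxa9 and Hoxb5 had the smallest p. Hoxc10, a determinant of lumbar limb-innervating motor neurons, had 0 counts in all 6 wt CN3/4 libraries against 53.2 ± 18 CPM in SC (SD, n = 10). That placed it at least 83.3-fold lower, taking 3 counts per library as the limit that a count of 0 allows (edgeR adjusted p = 3.79e-14). Hoxc8, which sets brachial pool identity, was at least 78.8-fold lower, Hoxa9 at least 74.6-fold and Hoxb5 at least 27.9-fold.

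CN10, whose neurons send parasympathetic axons to the viscera, had the highest Hoxb5 and Hoxc4 levels of the 4 sites. Its 5 leading members by mean RPKM in wt were Hoxb5 (54.3), Hoxc4 (31.2), Hoxa5 (14.0), Hoxd4 (7.33) and Hoxc5 (6.47). Of 39 members, 8 were detected in all 12 libraries and 10 in over 50% of them: Hoxa2, Hoxa3, Hoxb3, and all 7 of groups 4 and 5. Hoxb5 had 39.3, 70.2 and 117 CPM (lowest, median, highest) in CN10, and Hoxc4 34.6, 46.2 and 64.1 CPM. The lowest CN10 library exceeded every CN12, SC and CN3/4 library for both genes. Anterior genes were sparser: Hoxa2 had 0.858 to 7.25 CPM in CN10 and was detected in all 12 libraries, Hoxb3 0.321 to 2.89 and in 11. Hoxb1, the gene of facial motor neuron identity, Hoxd1 and Hoxd3 reached at most 8, 13 and 6 counts in CN10.

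**Figure D3:**
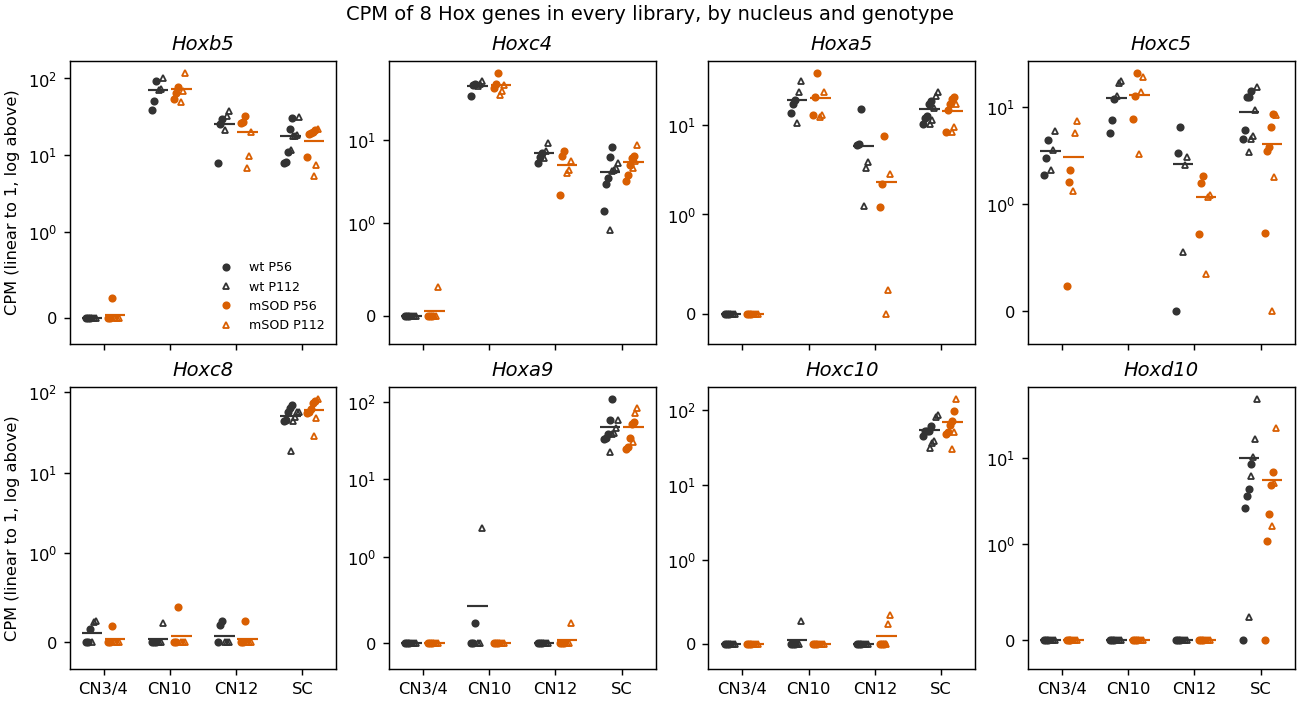
CPM of 8 Hox genes in each library (linear to 1 CPM, logarithmic above), by site: filled symbols P56, open triangles P112, black wt, orange mSOD, lines the means. Hoxb5 and Hoxc4 are highest in CN10, while Hoxc8, Hoxa9 and Hoxc10 are high in SC and at or near 0 elsewhere. Hoxd10 spreads from 0 to 48.3 CPM in SC.

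In wt, 5 members were higher in CN10 than in SC and 12 were lower, of 39 (24 tested), in a comparison where 37.7% of all genes were called (18.4% higher, 19.3% lower). The 5 that were higher were Hoxc4, Hoxb5, Hoxb4, Hoxb3 and Hoxa4, all of groups 3 to 5. Of these, Hoxb4, Hoxb3 and Hoxa4 passed the low-count filter through CN10 and so had to be higher there. Values of those genes are a description. Hoxc4 had 45.3 ± 5.69 CPM in CN10 (SD, n = 6) and 4.21 ± 2.18 in SC (n = 10), a log2 difference of 3.68 (SE 0.33, edgeR adjusted p = 2.73e-12). Hoxb5 had 71.7 ± 24 and 17.8 ± 8.58 CPM, a log2 difference of 2.80 (SE 0.31, adjusted p = 6.91e-10). The groups did not overlap for either gene. The Hoxb5 difference includes the project term and is larger than the means alone give. In SC of both genotypes, median Hoxb5 was 19.7 CPM in P6362 (n = 12), 11.6 in P10814 and 7.92 in P11355 (n = 3 each). No CN10 library was of P6362. The Hoxb5 call was kept without the project term. Hoxb4, a retinoid-responsive gene of the caudal hindbrain, had 6.44 and 0.965 CPM (log2 difference 3.32, SE 0.72, adjusted p = 8.65e-05). Hoxb3, which acts in hindbrain motor neuron progenitors, had 1.88 CPM in CN10 and at most 1 count in any wt SC library, at least 1.53-fold higher. Hoxa4 was called at an adjusted p of 0.0185 but lost its call in 3 of 16 fits that left out a library, with an adjusted p of up to 0.111 without SC P112 wt replicate 2.

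Hoxa5 and Hoxc5, which maintain phrenic motor neurons in the cervical cord, were not called between CN10 and SC in wt. Hoxa5 ranged from 10.6 to 31.3 CPM in wt CN10 and 10.2 to 23.7 in wt SC, with overlapping groups, and Hoxc5 differed by 0.68 on the log2 scale (SE 0.57, adjusted p = 0.412). The 12 members that were lower in CN10 were those tested in groups 6 to 10. They passed the low-count filter through SC and so had to be lower in CN10, and their values are a description. Hoxc8 and Hoxc10 had at most 1 count in wt CN10 libraries and were at least 76.7-fold and 81.1-fold lower than in SC. Hoxa9 and Hoxc9, the other 2 posterior genes with the smallest p, were lower by 7.65 on the log2 scale (SE 0.99) and by at least 25.4-fold. Hoxa9 had 11 counts in CN10 P112 wt replicate 2, 1 in CN10 P56 wt replicate 3 and 0 in the other 10 CN10 libraries.

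Relative to CN3/4, 14 of 39 members were higher in wt CN10 and none was lower (37.9% of all genes were called, 18.9% higher and 19% lower). Hoxb5 was at least 112.2-fold higher, Hoxc4 at least 70.9-fold, Hoxa5 at least 30-fold and Hoxb4 at least 10.1-fold, all with 0 counts in the 6 wt CN3/4 libraries. Since Hoxb4, Hoxb3 and Hoxa4 passed the low-count filter through CN10, they had to be higher in this comparison. Hoxa2, which patterns the anterior hindbrain, was also higher, at 3.27 ± 2.38 CPM (SD, n = 6). Hoxc5 was higher by 1.72 (log2, SE 0.54, adjusted p = 0.00956) with overlapping groups. Hoxb2 lost its call without CN10 P112 wt replicate 1 (adjusted p = 1), Hoxb6 in 9 of 12 fits that left out a library and Hoxb7 in 8. For 8 of the tested members, all of groups 6 to 10, both sites held an age group at 0 counts throughout, and this contrast could not call them. With ages pooled, 15 members were higher and 1 was lower, Hoxd8, whose CN3/4 counts all come from 1 library.

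CN12, the somatic nucleus of the tongue, had the same leading genes as CN10 by mean RPKM in wt, at lower levels. They were Hoxb5 (18.9), Hoxc4 (4.61), Hoxa5 (4.01), Hoxd4 (1.27) and Hoxc5 (1.26). Hoxd4 reached at most 3 counts in any wt CN12 library and was therefore not detected there. Its implied transcript length was short (median 0.424 kb), which raises its RPKM. Hoxb4, with a longer implied length (2.02 kb), had 5 to 9 counts in wt CN12 libraries. In all 12 CN12 libraries only Hoxc4 and Hoxb5 were detected. Hoxb5 had 6.82, 25.9 and 37.4 CPM (lowest, median, highest), Hoxc4 2.21, 6.19 and 9.31, Hoxa5 0, 3.06 and 15.0, and Hoxc5 0, 1.42 and 6.10. Relative to CN3/4, 9 of 39 members were higher in wt CN12 and none was lower, against 8.8% of all genes called (5.35% higher, 3.46% lower). Of these 9, Hoxd4 was detected in no wt library of either site, with at most 3 counts in CN12 and 0 in CN3/4. Hoxb5 was at least 40.4-fold higher, Hoxc4 at least 10.9-fold, Hoxa5 at least 9.23-fold and Hoxb4 at least 2.54-fold. Without CN12 P56 wt replicate 1, Hoxa4 and Hoxa3 lost the call (adjusted p = 0.132 and 0.14), and Hoxa3 lost it in 9 of 12 such fits. The count of 9 fell to 4 at P56 alone, 4 at P112 alone and 3 when only the compared groups were fitted, and Hoxd4, Hoxb2, Hoxb3, Hoxa4 and Hoxa3 were called at neither age alone. For 11 of the 24 tested members both sites held an age group at 0 counts throughout, and this contrast could not call them.

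Compared directly, all 7 members of groups 4 and 5 were lower in wt CN12 than in wt CN10, as were Hoxa2 and Hoxb3, and no other tested member was called (29.9% of all genes called, 15.4% higher and 14.4% lower). Of the 24 tested, 9 of groups 6 to 10 had an age group at 0 counts throughout at both sites and could not be called. At P56 alone the count of 9 fell to 3. Hoxb4, Hoxb3 and Hoxa4 passed the low-count filter through CN10, so a lower CN12 level was fixed for them and their values are a description. Hoxc4 had 6.94 ± 1.38 CPM in CN12 and 45.3 ± 5.69 in CN10 (SD, n = 6 each), a log2 difference of -2.71 (SE 0.28, edgeR adjusted p = 3.58e-10). Hoxb5 had 25.8 ± 10.4 and 71.7 ± 24 CPM (log2 difference -1.48, SE 0.27, adjusted p = 3.29e-05). Neither gene's groups overlapped. Hoxa5 (5.90 and 19.2 CPM, log2 difference -1.92, SE 0.41) overlapped. Hoxa4 (0.761 and 6.15 CPM, log2 difference -3.17, SE 0.79) did not. Only Hoxc4 and Hoxb5 of these 9 kept their call under each alternative fit tried, the ages taken alone included. Hoxa2 lost its call in 6 of 12 fits that left out a library (highest adjusted p 0.113, without CN10 P112 wt replicate 1) and Hoxb3 in 10 (0.0996, without CN12 P112 wt replicate 2).

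**Figure D4:**
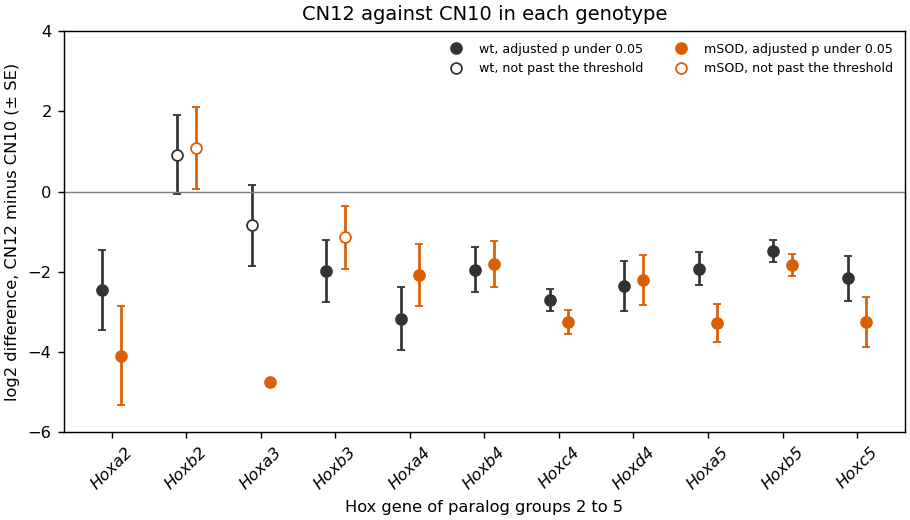
Log2 difference (CN12 minus CN10) with its SE for 11 tested members of paralog groups 2 to 5, in wt and in mSOD. Filled symbols passed an adjusted p of 0.05. All 7 members of groups 4 and 5 lie below 0 in both genotypes, and error bars of 10 or more are not drawn.

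Against SC, 1 of 39 members was higher in wt CN12 and 14 were lower (6.15% of all genes called, 2.97% higher and 3.17% lower). The higher one was Hoxb5, with 25.8 ± 10.4 CPM against 17.8 ± 8.58 (log2 difference 1.32, SE 0.31, adjusted p = 0.0053), and the groups overlapped. This value rests on the project term: without it the difference was 0.56 and the adjusted p 0.258. At P112 alone it was 1.22 with an adjusted p of 0.196. Within project P10814 the wt Hoxb5 medians were 32.6 CPM in CN12 (n = 3) and 14.8 in SC (n = 2), and within project P11355 25.5 (n = 3) and 8.04 (n = 2), while the 6 wt SC libraries of project P6362 had a median of 20.2. Hoxa5 and Hoxd4, which were lower in CN12 by 1.52 (SE 0.45, adjusted p = 0.0314) and 2.04 on the log2 scale (adjusted p = 0.0486), lost the call in 5 and 11 of 16 fits that left out a library, with the highest adjusted p without SC P56 wt replicate 1 (0.113) and without SC P112 wt replicate 1 (0.307). The other 12 members that were lower were those tested in groups 6 to 10, again genes that passed the filter through SC and had to be lower, with values given as a description. They were led by Hoxc8, Hoxc10, Hoxa9 and Hoxa7 at a minimum of 69.4, 73.3, 65.7 and 24.7-fold.

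SC motor neurons expressed a wide run of Hox genes from group 4 to group 10. The highest in wt by mean RPKM were Hoxc10 (37.4), Hoxc8 (29.8), Hoxa9 (17.7), Hoxa7 (16.1) and Hoxb5 (12.3). Each of these was detected in all 18 SC libraries: Hoxc10 at 30.3, 51.7 and 140 CPM (lowest, median, highest), Hoxc8 at 18.6, 56.3 and 83.0, Hoxa9 at 22.2, 39.2 and 109. Hoxd8 (10.4 to 35.5 CPM), Hoxa10 (4.73 to 35.0), Hoxc9 (8.42 to 38.5) and Hoxd9 (1.90 to 23.3) were also detected throughout. Hoxc8 and Hoxc9 belong to brachial and thoracic identity in the embryo. Groups 1 to 3 were scarce, with Hoxb3 at no more than 1 count in any SC library.

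Paralogs of 1 group differed in SC. In group 6, Hoxb6 had 3.01, 7.72 and 20.4 CPM (lowest, median, highest) and Hoxc6 0.431, 5.42 and 12.8, while Hoxa6 had at most 2 counts. Per length, Hoxc8 (median 32.2 RPKM) was above Hoxd8 (10.9) and Hoxb8 (0.231) in group 8. Hoxa9 (15.3 RPKM), Hoxc9 (8.58) and Hoxd9 (6.29) were above Hoxb9 (0.358) in group 9, and Hoxc10 (37.0) and Hoxa10 (12.6) were above Hoxd10 (3.19) in group 10. In the B cluster, Hoxb5, Hoxb6 and Hoxb7 (medians of 12.7, 7.52 and 4.05 RPKM) were the members detected in over 50% of SC libraries. Hoxc10 means were 52.1 ± 5.68 and 54.3 ± 26.3 CPM in wt at P56 and P112 (SD, n = 5 each), and 65.4 ± 19.2 (n = 5) and 73.3 ± 58.3 (n = 3) in mSOD. Hoxc8 means were 55.5 ± 11.5, 45.2 ± 15.8, 64.8 ± 9.95 and 53.0 ± 27.7 CPM in the same order. For both genes the ranges of 1 SD overlapped between the 4 groups.

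The most posterior members divided the SC libraries. Hoxd10, a lumbar gene, ran from 0 counts (SC P56 wt replicate 3 and SC P56 mSOD replicate 2) to 156 counts (48.3 CPM, SC P112 wt replicate 4). In the 5 SC P112 wt libraries it was 10.2, 0.237, 6.22, 48.3 and 16.3 CPM. Hoxa11 reached 4 counts in 2 of 18 libraries, Hoxc11 in 3 and Hoxd11 in 3. Hoxa11 and Hoxc11 were highest in SC P112 mSOD replicate 3 (22 and 20 counts). Hoxd11 was highest in SC P112 wt replicates 4 and 5 (18 and 16 counts). SC P56 mSOD replicate 4 held all of these group 11 genes, at 5, 10 and 4 counts. Every library with 4 or more counts of a group 11 gene came from project P6362, which held 12 of the 18 SC libraries. In the SC libraries of P10814 and P11355 these genes reached at most 0.56 CPM. The Hoxd10 libraries at 0 counts and at 156 counts were of P6362 too. The part of the project in this division was not tested. In the brachial and thoracic range Hoxb8 and Hoxb9 reached at most 19 and 13 counts and were detected in 3 and 8 of 18 libraries, while their paralogs Hoxc8 and Hoxa9 were detected in all.

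The mSOD libraries, which come from other mice, were compared in the same way, with the low-count filter and the project term shared with wt. All 6 members tested in groups 6 to 8, and all 6 in groups 9 to 13, passed that filter through SC. They had to be lower than SC in CN3/4, CN10 and CN12 in both genotypes. Hoxb4, Hoxb3 and Hoxa4 passed it through CN10, so a higher level there was fixed for them. Shared calls of these members are a description and no support. No shared share over all called genes is given for comparison. Of the 20 members lower in CN3/4 than SC in wt, 19 were also lower in mSOD, 95% of the wt and 100% of the mSOD calls (in mSOD 7.46% of all genes were called, 2.43% higher and 5.03% lower). For CN10 against SC, 15 were shared (88.2% of the wt and 93.8% of the mSOD calls), and 31.9% of all genes were called in mSOD, 14.1% higher and 17.7% lower. All 15 calls of CN12 against SC were shared (100% of each), with 15.6% of all genes called, 7.33% higher and 8.32% lower. For CN10 against CN3/4, 12 were shared (85.7% and 100%), with 38.6% of all genes called, 19% higher and 19.7% lower. CN12 against CN3/4 shared 8 (88.9% and 100%), with 26.4% of all genes called, 12.9% higher and 13.5% lower, and the mSOD count fell to 4 at P112 alone and to 3 when only these groups were fitted. CN12 against CN10 also shared 8 (88.9% and 80%), with 37.1% of all genes called, 19% higher and 18.1% lower. In mSOD, Hoxb5 was again higher in CN10 than SC, by 3.20 (log2, SE 0.34, adjusted p = 5.17e-10), and Hoxc4 by 3.29 (SE 0.36, adjusted p = 1.03e-09). Hoxc4 was lower in CN12 than CN10 by 3.26 on the log2 scale (SE 0.30, adjusted p = 1.14e-11) and Hoxa5 by 3.27 (SE 0.47). Hoxc5 was called between CN10 and SC in mSOD alone (log2 difference 2.06, SE 0.64, adjusted p = 0.00824), and whether it differed between genotypes there was not tested. That call was lost at P56 alone and at P112 alone, and the difference turned to -1.73 (adjusted p = 0.558) when only these groups were fitted. Within each of projects P10814 and P11355, site medians of the same genotype had the direction of every called member, with exceptions in 2 comparisons where both medians were 0. These were, for CN10 against CN3/4 in wt, Hoxb7 in both projects, Hoxb2 in P10814 and Hoxb6 in P11355, and, for CN3/4 against SC in mSOD, Hoxa2 and Hoxa4 in P10814. In mSOD each of these projects held 1 SC library.

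No Hox gene passed the test between mSOD and wt at any site or age. In CN3/4 at P56 and P112 and in CN10 at P112, 0% of all genes were called. The share was 0.0162% in CN10 at P56, 0.00541% and 0.0703% in CN12 at P56 and P112, and 0.541% and 0.47% in SC at P56 and P112. Unadjusted, edgeR gave a p under 0.05 for 1 and 0 of the 24 members tested in CN3/4 at P56 and P112, 1 and 1 in CN10, 7 and 3 in CN12, and 3 and 0 in SC. Over all genes that share was 3.2% and 3.17% in CN3/4, 13.4% and 3.62% in CN10, 9.73% and 4.38% in CN12, and 12% and 9.87% in SC. DESeq2 called 1 member in CN12 at P56 and 0 in the other comparisons. The median log2 difference of the 24 members in SC was 0.16 at P56 and 0.01 at P112, against 0.05 and -0.01 over all genes.

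In CN12 at P112 the member with the smallest p was Hoxb5. It had 32.6, 37.4 and 21.6 CPM in wt and 6.82, 20.4 and 9.97 CPM in mSOD. Every mSOD library was lower than every wt library, with a log2 difference of -1.10 (SE 0.42), but the edgeR adjusted p was 0.955. The share of all genes with such a separation of libraries is not given for comparison. All 6 were sequenced in P10814 except the mSOD library at 9.97 CPM, which belonged to P11355. At P56 the order did not hold: wt had 7.87, 25.5 and 29.9 CPM and mSOD 32.0, 26.2 and 26.8. The smallest p in CN12 at P56 belonged to Hoxa2, with 16, 5 and 1 counts in wt and 0, 1 and 0 in mSOD (adjusted p = 0.443). In CN10 at P56 it was Hoxb2, with 2, 4 and 9 counts in wt and 1, 1 and 0 in mSOD (adjusted p = 0.353). The smallest p in CN3/4 at P56, CN3/4 at P112 and CN10 at P112 belonged to Hoxd8, Hoxc8 and Hoxa9, each resting on 1 or 2 wt libraries with a count.

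In SC at P56 the smallest p belonged to Hoxa4, at 1, 8, 0, 0 and 0 counts in wt and 5, 0, 0, 8 and 0 in mSOD (adjusted p = 0.344), a gene near its detection limit. Hoxd8, picked after its values were seen, had 17.1, 13.6, 10.4, 16.6 and 14.6 CPM in wt and 32.0, 22.3, 28.6, 25.7 and 24.6 in mSOD. The groups did not overlap, with a log2 difference of 0.995 (SE 0.48, edgeR adjusted p = 0.400). The share of all genes whose groups did not overlap is not given for comparison, at P56 or at P112. All 5 SC P56 mSOD libraries came from project P6362, which also supplied 3 of the 5 wt libraries. For Hoxd8, the SC P112 wt libraries had 21.7, 15.4, 26.6, 23.5 and 22.3 CPM. Hoxb6 in SC at P112, also picked after its values were seen, had 7.74, 6.62, 20.4, 17.3 and 16.7 CPM in wt and 5.88, 3.01 and 3.03 in mSOD, again without overlap (log2 difference -1.22, SE 0.77, adjusted p = 0.683). The wt libraries at 7.74 and 6.62 CPM and the mSOD library at 5.88 came from project P10814. Those at 20.4, 17.3 and 16.7 in wt and 3.03 in mSOD came from P6362, and the one at 3.01 from P11355. The smallest p in SC at P112 and between ages in wt SC belonged to Hoxb3 (adjusted p = 0.528 and 0.573), with at most 1 count in a library. Between P112 and P56 in wt SC no member was called (0% of all genes; none by DESeq2 after adjustment). At an unadjusted p under 0.05 edgeR gave 1 member of 24 and 8.51% of all genes. In the cranial nuclei age and project nearly coincide and cannot be told apart.

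**Figure D5:**
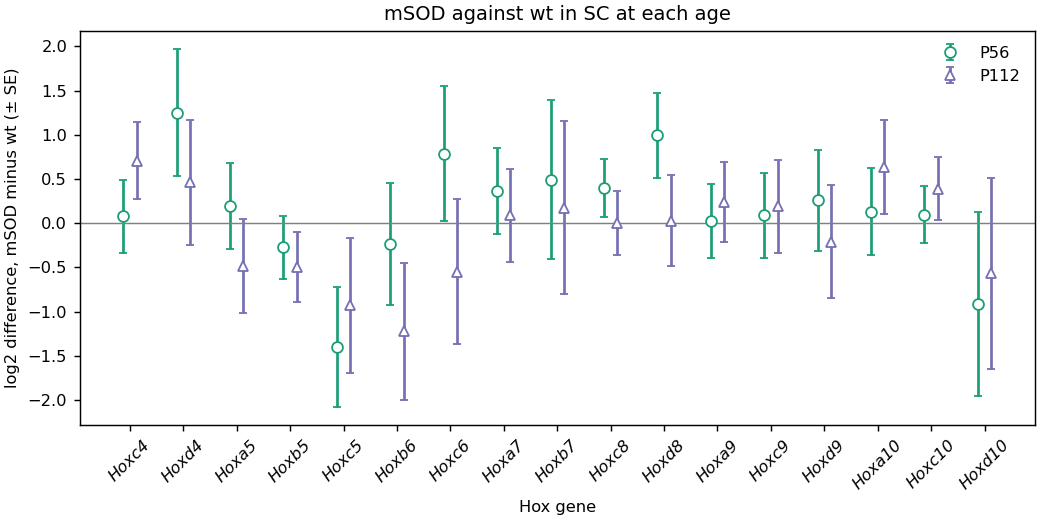
Log2 difference (mSOD minus wt) with its SE for the 17 members detected in over 50% of SC libraries, at P56 and at P112. No gene passed an adjusted p of 0.05, and Hoxd8 at P56 stands at 0.995.

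Other genes around the Hox system were read from gene lists. The shares of all genes called in the same wt comparisons are those given above. Of 16 non-coding and antisense genes of the clusters in the table, 6 were tested. All 6 were lower in wt CN3/4 than in SC, 5 were higher in CN10 than CN3/4, and 4 were lower in CN12 than CN10. All 16 were at or under 3 counts in every CN3/4 library, so the tested ones passed the low-count filter through other sites. A low level in CN3/4 was thus fixed for them, and their counts there are a description and no support. Their summed level was 0 to 0.314 CPM in CN3/4, 1.36 to 6.31 in CN12, 16.8 to 27.2 in CN10 and 18.0 to 38.0 in SC, an order of the sites like that of the coding genes. Against SC in wt, CN10 was higher for Hotairm1, from the anterior end of the A cluster (log2 difference 2.24, SE 0.46), and for Haglr (1.29, SE 0.49). CN10 was lower than SC for Hoxaas3 (log2 difference -2.24, SE 0.60) and for Hoxd3os1, which had at most 2 counts in CN10 and 4.38 to 19.0 CPM in SC. Hoxd3os1 passed the low-count filter through SC and so had to be lower in CN10. In the annotation 16 of the 39 Hox genes share exonic bases with another gene, 10 of them on the opposite strand, and whether the counting used strand is not given in the sources used here. Hoxb3 shares 2250 bases with Hoxb3os, and Hoxb5 shares 100 bases with Hoxb5os.

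All 9 TALE cofactors were tested. Against SC in wt, 2 were higher in CN3/4 (Meis3 and Pbx3) and 2 were lower (Meis2 and Meis1). Meis2 had 0.427 CPM in CN3/4 (median) against 31.9 in SC, 37.7 in CN10 and 80.2 in CN12. Of the 13 retinoid and upstream regulators, 6 were tested, and Gdf11, a ligand that promotes posterior Hox expression in the embryo, was lower than SC in CN3/4 (log2 difference -1.40, SE 0.25), CN10 (-0.86, SE 0.25) and CN12 (-1.09, SE 0.25). Cdx1, Cdx2 and Cdx4, embryonic activators of the posterior clusters, were at or under 3 counts at all 4 sites.

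Among 20 Polycomb and Trithorax genes, all tested, 5 were higher and 1 was lower in CN3/4 than in SC, 3 and 3 in CN10, and 3 and 1 in CN12. Of all genes, 15.5%, 37.7% and 6.15% were called in these 3 comparisons. The share of the 20 that was called lay above that of all genes in CN3/4 and CN12 and below it in CN10. Whether these shares differ was not tested. Their summed level overlapped between sites (344 to 502 CPM over all libraries). Of 10 genes that flank the clusters, 7 were tested, with 2 higher and 2 lower in CN3/4 than in SC, 2 and 2 in CN10, and 1 and 1 in CN12. Of 10 tested column and pool genes, 2 were higher and 5 lower in CN3/4, 2 and 6 in CN10, and 1 and 1 in CN12. Foxp1, the Hox cofactor of limb-innervating columns, was called in none of the 6 wt site comparisons and had medians of 15.5, 14.6, 17.2 and 21.4 CPM in CN3/4, CN10, CN12 and SC.

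Genes with the most similar pattern were sought over the 16 group means, which share sites and projects. For the summed CPM of groups 3 to 5 they were Adra2a (Pearson r = 0.981), Unc5c (0.962), Cachd1 (0.961), Coro2a (0.960) and Hotairm1 (0.957). Adra2a group means were 29.6 to 46.2 CPM in CN10, 7.49 to 10.8 in CN12, 7.09 to 10.2 in SC and 0.280 to 1.74 in CN3/4. For the summed CPM of groups 9 to 13 they included Hoxd3os1 (r = 0.987), Olfr1259 (0.975), Myh9 (0.968) and Khsrp (0.968).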

How the data were processed

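Motor neurons were captured by laser from 4 sites of mSOD and wt mice, and polyadenylated RNA was sequenced with Smart-seq2 (full-length, no molecular identifiers), per the labels' protocols. The authors deposited raw read counts per gene and RPKM values; the RPKM values are the authors' own, and each of the 54 RPKM columns followed its own counts best. STAR 2.7.0e and GRCm39 (mm39) are named in the submitters' processing notes. The counter, annotation and use of strand are not given in the sources used here.

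Counts were fitted in edgeR 4.0.16 (R 4.3.3) with TMM normalization, 16 group means and a term for sequencing project, after filterByExpr, which left 18493 mouse genes. Each site comparison averaged both ages. Tests were quasi-likelihood F tests, two-sided, adjusted by Benjamini-Hochberg over all genes tested, with a call at an adjusted p under 0.05. CPM used TMM-scaled totals. A member was detected at 4 counts, and a fold against an arm with at most 3 counts in every library was bounded at 3 counts per library. Such limits cover counting error only. Of the 39 members 24 passed the filter: 5 of 8 in paralog groups 1 to 3, 7 of 7 in 4 and 5, 6 of 8 in 6 to 8 and 6 of 16 in 9 to 13. The test was tried on simulated data first.

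The series text calls the libraries biological replicates, replicates were numbered in accession order, and the labels do not tie libraries to mice, so several sites may share a mouse. Replicates differed beyond sampling noise (chi-square per gene at least 3.98). DESeq2 1.42.0, RLE size factors, no filter, no project term, single ages, smaller fits and leaving out each replicate were tried as alternatives. In site comparisons where both arms hold an age group at 0 counts in every library, the averaged contrast cannot call a gene, and a fit with ages pooled was added after the data were seen. Named genes were, per site, up to 5 members of highest wt RPKM; per site comparison, up to 4 members per direction of smallest p; and in genotype and age comparisons the member of smallest p. Values of some genes that these rules name are not reported here. The members and gene lists were chosen with earlier results of these data known.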

Additional observations from a re-analysis of the deposited data

Results flagged for a closer look

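In the 3 SC groups of 5 libraries, 17 members gave 51 combinations of member and group, and in 4 of them 1 library stood apart from the other 4 by Dixon's gap criterion (0.71), which chance meets in about 1 of 20. SC P112 wt replicate 1 had 0.928 CPM of Hoxc4 against 4.26 to 5.26 in the others. The same library had 8.97 CPM of Hoxd4 against 1.66 to 2.79. SC P56 mSOD replicate 1 had 9.64 CPM of Hoxb5 against 18.9 to 21.3. SC P56 mSOD replicate 2 had 38.5 CPM of Hoxc9 against 8.42 to 15.8.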

How the results depend on the processing

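Counts of called members stayed within 1.5 times their value under all 226 alternatives that left out 1 library. Of the other alternatives, some of which used 1 age, 1 set of groups or fewer projects, 148 stayed within the limit and 14 moved further. For medians of detected members and of paralog-group shares the limit was 1 SD between the site's libraries, in place of 1.5 times. The cause of these moves was not tested unless named. In wt CN12 against CN3/4 the count fell from 9 to 4 at P56 alone, 4 at P112 alone and 3 when only the compared groups were fitted, where 4 members passed the filter. In mSOD it fell from 8 to 4 at P112 alone and 3 in the compared groups. In wt CN12 against CN10 it fell from 9 to 3 at P56 alone. DESeq2 called 1 member between genotypes in CN12 at P56 against 0 by edgeR. Hoxc5 in CN10 against SC in mSOD turned to a log2 difference of -1.73 (adjusted p = 0.558) when only these groups were fitted. The median number of detected members moved with the count required: at 1 count it was 2 in CN3/4, 14.5 in CN10, 12 in CN12 and 25 in SC, and at 10 counts 9, 3.5 and 15.5 in CN10, CN12 and SC.

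Leaving out 1 library gave, in wt, 19 to 21 called members in CN3/4 against SC, 16 to 17 in CN10 against SC, 13 to 15 in CN12 against SC, 11 to 14 in CN10 against CN3/4, 7 to 9 in CN12 against CN3/4 and 7 to 9 in CN12 against CN10. In mSOD these were 17 to 19, 15 to 17, 14 to 17, 12 to 13, 6 to 8 and 8 to 11. Genotype and age comparisons stayed at 0. With ages pooled, wt counts were 22, 17, 14, 16, 11 and 10 in the same order and mSOD counts 20, 17, 15, 12, 8 and 8. The higher Hoxb5 level in CN12 than SC was not called in mSOD without CN12 P112 mSOD replicate 2 (adjusted p = 0.0583), without the project term (log2 difference 0.41, adjusted p = 0.464) or at P112 alone (0.61, adjusted p = 0.655). No fit without project P6362 was run for SC mSOD, where a group would be empty. Members near 4 counts cannot be placed at this depth. No paired analysis was possible because the labels number no replicates.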
